A study of Homo sapiens with 14 samples.

Results

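RelB and p52 form the prototypic dimer of the non-canonical NF-κB pathway, and the binding of these 2 subunits was compared here in L1236 cells over the union of all regions bound by any subunit, 14865 of 14865 regions in the series. L1236, an established human line, comes from Hodgkin lymphoma. The cells were cultured without any treatment named in the labels. Chromatin was immunoprecipitated in 2 biological replicates per subunit, with a single rabbit polyclonal antibody for RelB, and with a mouse monoclonal antibody for the first and a rabbit polyclonal antibody for the second p52 replicate. RelA and p50 were precipitated in 2 replicates each from the same cells, and 6 input DNA libraries were sequenced. A region is in the table because a peak was called for at least 1 subunit. Both p52 and RelB were called in 3200 regions, p52 without RelB in 7693, RelB without p52 in 784 and neither of them in 3188, which were there for p50 or RelA.

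In the non-canonical pathway, receptors such as CD40 and the lymphotoxin β receptor let the kinase NIK accumulate, which activates IKKα. IKKα phosphorylates the precursor p100, the product of NFKB2, and the proteasome trims it to p52. RelB, which p100 otherwise retains in the cytoplasm, then enters the nucleus with p52. Both subunits can also pair with other family members, p52 has no transactivation domain of its own whereas RelB has one, and both contact κB sites, short GC-flanked sequences with an A and T rich centre. Constitutive NF-κB activity is a hallmark of Hodgkin lymphoma cells.

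The read counts are of merged replicates, 1 number per subunit and region, so that no test of RelB against p52 was possible and all comparisons below are descriptions of these merged libraries. Counting intervals of a region are exact 95% binomial (Clopper-Pearson) intervals and intervals of medians over regions are order-statistic 95% intervals. Neither covers the spread between replicates. The regions held 470788 RelB reads and 1810792 p52 reads in all, 3.85 p52 reads for each RelB read. A region's ratio is the log2 of its RelB reads plus 1, as a share of all RelB reads, over its p52 reads plus 1, as a share of all p52 reads. A ratio of 0 therefore means equal shares, not equal numbers of bound molecules.

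Promoter sequences of 6 genes whose region overlapped a transcription start site (TSS) show the range from regions with relatively more RelB to regions with relatively more p52. They are from RefSeq (GRCh38.p14), first listed start site of the gene, 250 bases before to 50 bases after the start, 5′ to 3′ on the strand of the gene, with matches to the κB consensus on either strand in capitals. The regions themselves are given in hg18, so it is not known here whether a RefSeq start lies under a summit.
IL4R promoter: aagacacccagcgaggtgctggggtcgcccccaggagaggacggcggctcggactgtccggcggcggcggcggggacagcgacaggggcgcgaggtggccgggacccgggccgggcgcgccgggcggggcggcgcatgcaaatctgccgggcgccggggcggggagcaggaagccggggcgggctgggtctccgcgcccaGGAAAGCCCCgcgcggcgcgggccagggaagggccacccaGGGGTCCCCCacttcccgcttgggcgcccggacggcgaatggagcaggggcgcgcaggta
TNFAIP3 promoter: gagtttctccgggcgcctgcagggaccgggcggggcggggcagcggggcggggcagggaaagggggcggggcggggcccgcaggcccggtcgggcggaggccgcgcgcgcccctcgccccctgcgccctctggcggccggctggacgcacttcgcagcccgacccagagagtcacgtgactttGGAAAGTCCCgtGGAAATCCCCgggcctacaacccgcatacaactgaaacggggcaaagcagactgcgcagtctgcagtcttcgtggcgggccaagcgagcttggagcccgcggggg
NFKBIA promoter: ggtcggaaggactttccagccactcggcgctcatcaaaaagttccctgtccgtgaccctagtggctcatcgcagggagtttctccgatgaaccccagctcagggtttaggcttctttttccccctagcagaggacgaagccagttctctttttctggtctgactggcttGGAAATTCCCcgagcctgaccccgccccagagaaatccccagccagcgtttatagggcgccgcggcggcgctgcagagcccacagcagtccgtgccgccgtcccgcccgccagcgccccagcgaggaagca
BIRC3 promoter: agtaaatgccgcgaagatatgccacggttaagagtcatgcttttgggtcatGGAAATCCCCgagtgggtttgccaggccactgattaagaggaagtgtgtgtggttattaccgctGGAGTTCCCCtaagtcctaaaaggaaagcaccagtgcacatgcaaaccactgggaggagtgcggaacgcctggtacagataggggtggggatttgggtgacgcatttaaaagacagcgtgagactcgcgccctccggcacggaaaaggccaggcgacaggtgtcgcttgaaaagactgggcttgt
REL promoter: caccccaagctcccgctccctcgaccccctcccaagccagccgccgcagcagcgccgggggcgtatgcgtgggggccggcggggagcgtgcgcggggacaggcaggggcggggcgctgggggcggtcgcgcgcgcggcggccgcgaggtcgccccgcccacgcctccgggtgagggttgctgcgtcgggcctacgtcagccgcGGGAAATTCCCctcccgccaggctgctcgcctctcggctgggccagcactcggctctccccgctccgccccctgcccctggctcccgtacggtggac
TRAF1 promoter: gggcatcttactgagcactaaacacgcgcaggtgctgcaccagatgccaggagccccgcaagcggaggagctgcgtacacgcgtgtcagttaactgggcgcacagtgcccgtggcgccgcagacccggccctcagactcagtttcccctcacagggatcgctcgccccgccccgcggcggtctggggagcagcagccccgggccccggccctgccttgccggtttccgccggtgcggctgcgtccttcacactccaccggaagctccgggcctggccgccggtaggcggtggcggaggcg
IL4R, the receptor chain for interleukin-4, had a ratio of 1.89, from 139 RelB and 144 p52 reads. TNFAIP3, which encodes the deubiquitinase A20 that limits NF-κB signalling, had 1.19, from 244 and 411 reads. NFKBIA, the gene of the inhibitor IκBα, had 0.55, from 620 and 1626 reads. BIRC3, the gene of the ubiquitin ligase cIAP2 that takes part in the turnover of NIK, had 0.48, from 182 and 504 reads. REL, the gene of c-Rel, had -0.08, from 223 and 911 reads. TRAF1, an adaptor of TNF receptors, had -1.21, from 36 and 329 reads. The TNFAIP3 promoter holds 2 matches, starting 67 and 55 bases before the start. The single NFKBIA match begins at -81, and the REL sequence has overlapping matches at -47 and -46. No match lies in this window of TRAF1. Of the named genes with a region over their TSS, 83 had that region called for both subunits, and 23 of their promoters (27.7%, Wilson 95% interval 19.2% to 38.2%) held a match. Among 97 genes with p52 called there without RelB, 13 (13.4%, 8.00% to 21.6%) did. Over all 267 named genes with a region over their TSS it was 52 (19.5%, 15.2% to 24.6%), an interval that overlaps both of these. With RelB at least 2-fold over p52 there it was 8 of 43 (18.6%), and with p52 at least 2-fold over RelB 0 of 5. Over all 27305 genes of the promoter table, named or not in the regions, the share was 5.72%. The named genes all had a bound region and took their names from tables of the study, some of which list NF-κB targets. Their shares and that of all genes are therefore not from like sets. A match is a description of the sequence, and binding to it was not measured.

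RelB reads followed p52 reads. With the regions in 10 classes by p52 reads, the 1559 with the fewest (0 to 28) had a median of 8 RelB reads, the 1544 with 63 to 77 had 15, and the 1484 with the most (263 to 4821) had 78. Over all regions the rank correlation of the counts was 0.68 and Pearson's r of the log2 counts was 0.68. On the least-squares line of the log2 counts, a doubling of p52 reads went with 1.67 times as many RelB reads, and the residuals had an SD of 1.02 on the log2 scale. Wide regions collect more reads of either subunit, and per kb of region the rank correlation was 0.47. RelB reads correlated more with RelA reads (0.75, 0.49 per kb) and less with p50 reads (0.63, 0.29 per kb). In the 3200 regions called for both subunits these values were 0.72 for p52, 0.75 for RelA and 0.73 for p50. These points share libraries, width and local coverage, so the values carry no test.

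**Figure D1:**
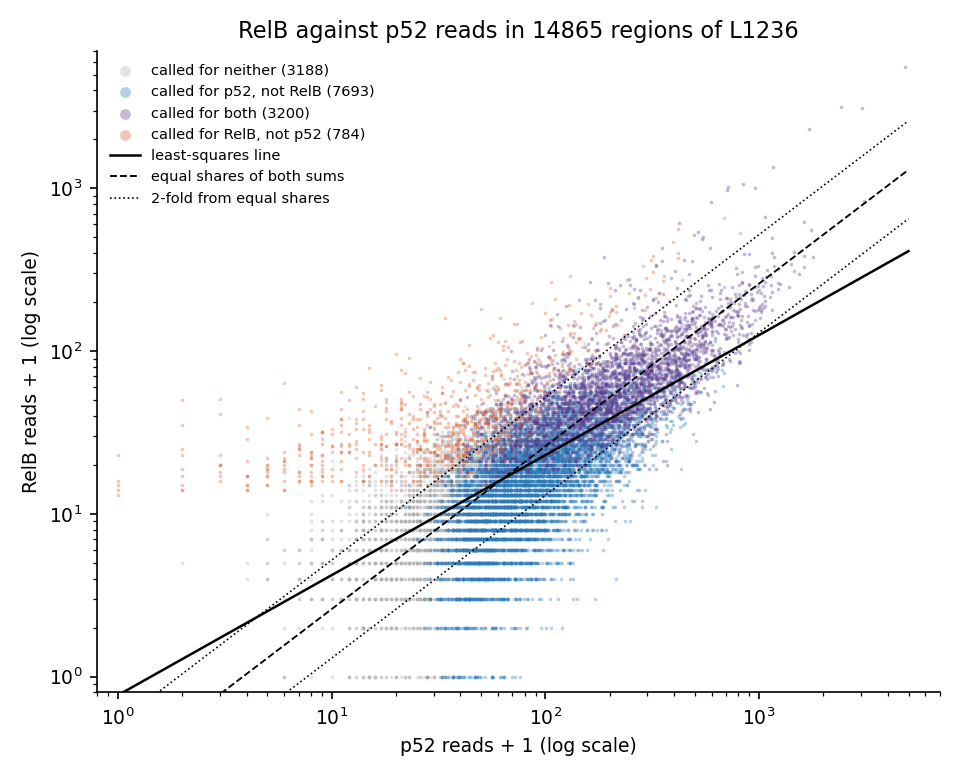
RelB reads against p52 reads in each of the 14865 regions, merged replicates, both axes on a log scale after adding 1 read. Colours give the peak calls, the solid line is the least-squares line, the dashed line marks equal shares of both sums and the dotted lines 2-fold from it. Of the 784 regions called for RelB without p52, 733 were at least 2-fold to RelB, and regions with 0 RelB reads form the bottom row.

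Most regions had similar shares of both subunits. The median ratio was -0.14 (-0.16 to -0.13), with quartiles at -0.76 and 0.50, and 10307 regions (69.3%) lay within 2-fold. RelB was at least 2-fold over p52 in 1922 regions, 12.9% of all, and p52 at least 2-fold over RelB in 2636, 17.7% of all. The counting interval excluded a ratio of 0 in 1764 of the former and 2438 of the latter. Not all of these regions had a call for the subunit in excess. Of the 1922, 733 were called for RelB without p52, 386 for both, 65 for p52 without RelB and 720 for p50 alone. Of the 2636, 2244 were called for p52 without RelB, 136 for both and 256 for p50 alone. The 3158 regions called for p50 alone had a median ratio of 0.45, with a median of 11 RelB and 33 p52 reads. The 2-fold line depends on the scale: scaled by the mapped reads that the study lists for each library, the counts were 1012 and 4874, and with these libraries reduced to the authors' size 271 and 10685, whereas after centring on the median they were 2355 and 2121. Adding 5 reads in place of 1 gave 2294 and 1095, and scaling by the sums over regions called for both 1501 and 3325. The order of the regions is the same under all of these scalings, though not under another number of added reads.

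The ratio moved with the amount of p52. The median was 0.79 in the class with the fewest p52 reads and -0.38 in that with the most, and RelB was at least 2-fold over p52 in 676 of 1559 regions of the former against 62 of 1484 of the latter. The p52 reads enter the ratio itself, and regions with few of them are often in the table for another subunit. RelB was called in 19.1% of the class with the fewest p52 reads, in 8.84% of the 1402 regions with 42 to 51 and in 78.1% of the class with the most.

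By call, the 570 regions called for RelB alone had a median ratio of 2.18, with a median of 30 RelB and 28 p52 reads. The 2936 regions called for p52 alone had -0.58 (11 and 62 reads) and the 4732 called for p50 and p52 had -0.57 (18 and 101 reads). These classes entered the table through the calls, which fixes the direction of the medians. Between the classes in which both subunits were called, the 2539 regions with p50, p52 and RelB had a median of 0.00 (-0.03 to 0.04), the 287 with p52 and RelB only had 0.50 (0.44 to 0.59), and the 349 with all 4 subunits had 0.36 (0.27 to 0.48). The 25 regions with p52, RelA and RelB but not p50 stood highest, at 1.83 (1.49 to 2.00), with a median of 182 RelB and 186 RelA reads. Absence of a RelB call did not mean absence of RelB reads. Of the 7693 regions called for p52 but not RelB, 2434 (31.6%, Wilson 30.6% to 32.7%) held at least 22.5 RelB reads per kb, the density that 95% of the RelB-called regions reached.

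The signal values, the score of each replicate that the authors entered into their reproducibility analysis, are the only readout with a value per replicate, and they exist where a subunit was called. Which value belongs to which p52 antibody is not stated. In the regions called for both, the 2 p52 values correlated with a rank correlation of 0.86 and the 2 RelB values with 0.50. The RelB to p52 ratio of the first values and that of the second had a rank correlation of 0.48, and 0.47 with the values crossed. Of the 386 regions called for both with RelB reads at least 2-fold over p52, 347 had both signal ratios above their medians, 38 had 1 and 1 had none. All 136 regions called for both with p52 at least 2-fold over RelB had both signal ratios below their medians. The merged reads come from the same replicates as the signal values, and the regions were chosen by those reads. These counts therefore largely follow from the choice of regions and are no check of reproducibility.

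**Figure D2:**
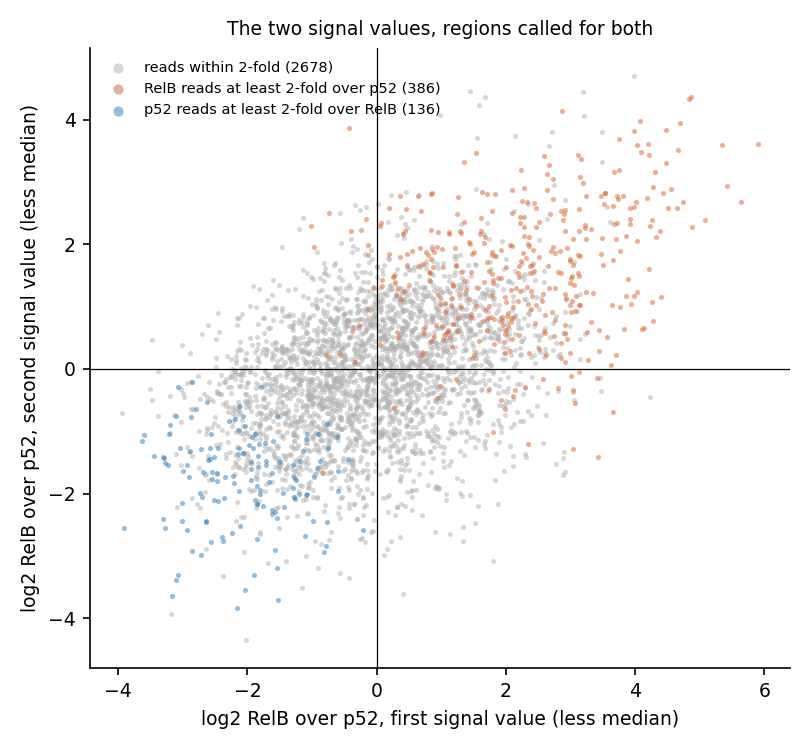
Log2 ratio of RelB to p52 from the first (x axis) and second (y axis) signal value of each subunit, less the median, in the 3200 regions called for both. The 386 orange regions had RelB reads at least 2-fold over p52 and lie mostly in the upper right, and the 136 blue regions with p52 reads at least 2-fold over RelB all lie in the lower left.

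Regions at a TSS had relatively more RelB reads than distal regions. The median ratio was 0.48 (0.45 to 0.52) in 2447 regions that overlapped a TSS, 0.23 (0.13 to 0.32) in 542 regions within 1 kb, -0.20 at 1 to 10 kb, -0.34 at 10 to 100 kb and -0.35 beyond 100 kb. Near a TSS (up to 1 kb) minus distal (over 10 kb) the difference was 0.79 (0.76 to 0.82). Near a TSS there were 27.8 RelB and 84.8 p52 reads per kb, and in distal regions 32.9 and 136, so that p52 reads per kb differed more than RelB reads. Within calls the direction was not always the same. Regions with p50, p52 and RelB had 0.42 near a TSS and -0.11 in distal regions, regions with p50 and p52 had -0.02 and -0.70, and regions with p52 alone -0.10 and -0.62. Regions called for p50 alone, thus for neither RelB nor p52, were 1193 of the 2989 near and 1456 of the 9262 distal regions. Their medians were 0.75 and 0.16, and they held 389 of the 670 near regions with RelB at least 2-fold over p52. The 14 near and 220 distal regions called for p52 and RelB only had 0.54 and 0.50, where the interval near a TSS ran from -0.28 to 1.19. Regions called for RelB alone ran the other way, with 2.03 (1.78 to 2.39) in 48 near and 2.23 (2.11 to 2.38) in 440 distal regions, whose intervals overlap. In 751 genes with a region over the TSS and a distal one, the TSS region had the higher ratio in 577 (76.8%). With only regions called for both, 85 such genes remained, and the TSS region was higher in 61 (71.8%, Wilson 61.4% to 80.2%). In fold enrichment it was higher in 51 of these 85 (60%, 49.4% to 69.8%), with a median difference of 0.28 (-0.02 to 0.52).

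The size of this difference depended on the readout. In the regions called for both it was 0.44 (0.38 to 0.50) in reads, 0.30 (0.21 to 0.39) in pileup, the number of fragments at the summit, and 0.03 (-0.06 to 0.13) in fold enrichment, which divides the pileup by the local background. The local background, pileup over fold enrichment, was 3.17 for RelB near a TSS and 2.79 in distal regions, whereas for p52 it was 2.95 and 3.27. The first signal values gave 0.62 (0.46 to 0.78) and the second 0.20 (0.07 to 0.33). Regions near a TSS were also wider (median 1277 against 778.5 bp) and had more RelA reads (23 against 12) and p50 reads (132 against 65), and the part of these in the difference was not tested.

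**Figure D3:**
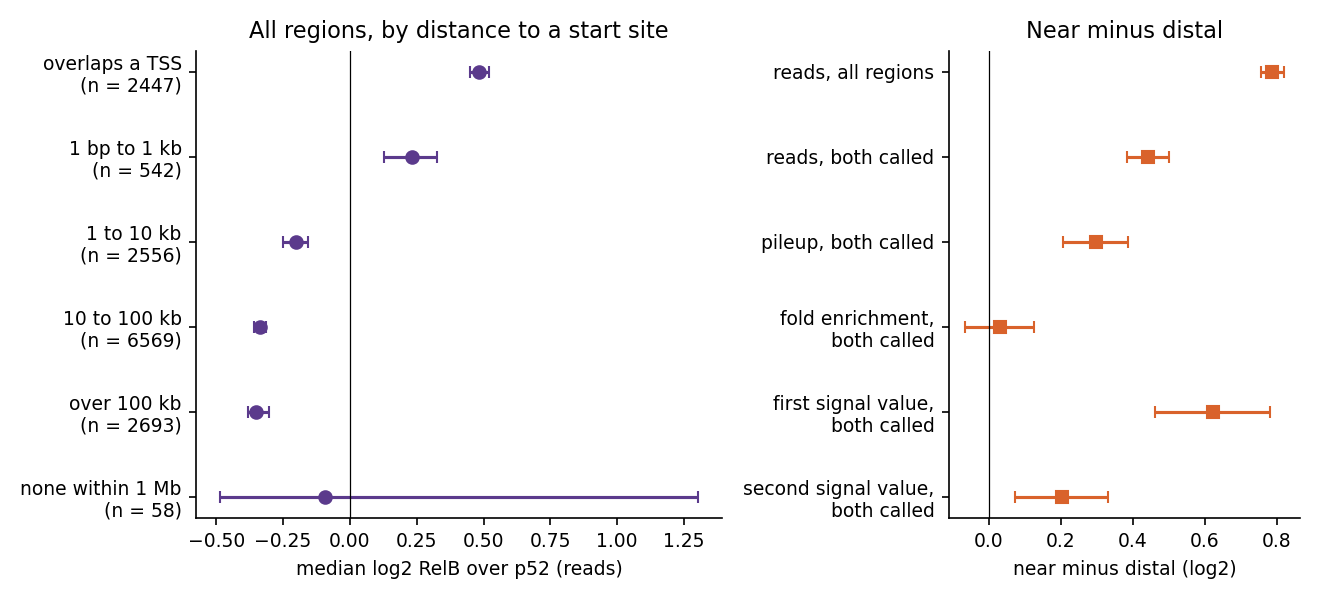
Left, median log2 ratio of RelB to p52 reads by distance of the region to the closest TSS, with order-statistic 95% intervals. Right, near (up to 1 kb) minus distal (over 10 kb) difference by readout, which falls from 0.79 in reads over all regions to 0.03 in fold enrichment over regions called for both.

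The summits of RelB and p52 nearly coincided where both were called. The median distance was 19 bp (18 to 20), and 2545 of 3200 pairs (79.5%) lay within 50 bp. The median signed offset, RelB minus p52, was -1 bp. Distances were alike at both ends of the ratio, with a median of 19 bp in the 640 regions with the least RelB relative to p52 and 16 bp in the 640 with the most. They rose with width, from 15 bp in the 800 narrowest to 25.5 bp in the 800 widest regions. In 252 regions (7.88%) the summits lay over 250 bp apart, of which 171 were among the 800 widest. The table lists the summit of the most significant peak only, so a far pair can be different peaks of a region bound by both. Where p50 was also called in such regions (234), its summit was within 50 bp of that of p52 in 129 and of that of RelB in 65. For RelA (44 regions) the numbers were 14 and 16. Regions over a TSS had far summits in 15.5% of cases and distal regions in 6.28%, but in regions of 1000 to 2000 bp the shares were 8.93% (6.17% to 12.8%) and 7.25% (5.80% to 9.02%).

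**Figure D4:**
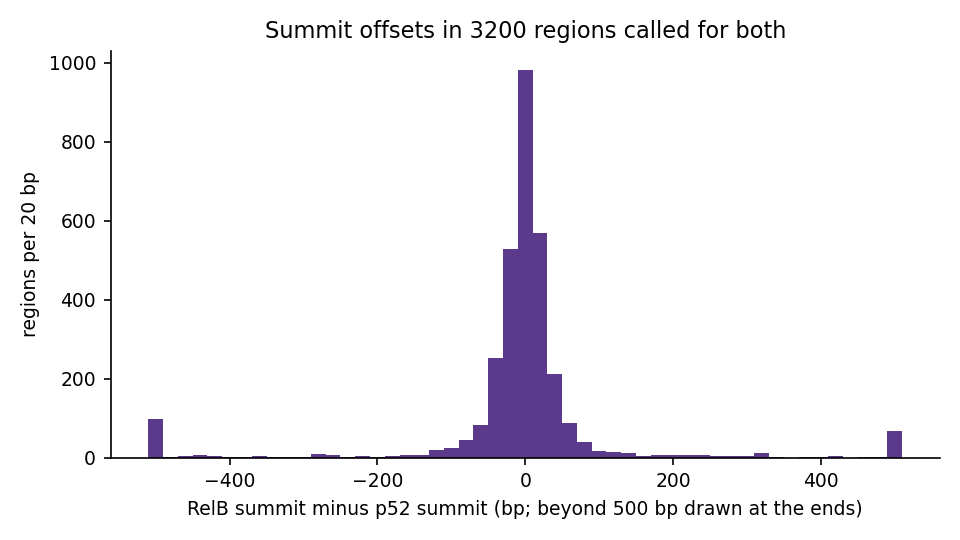
Offsets between the RelB and p52 summits in the 3200 regions called for both, in bins of 20 bp, with offsets beyond 500 bp (160 regions) drawn at the ends. Most pairs lie close to 0 and neither direction prevails.

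Far summits were found at several classical NF-κB target genes. At NFKB2, which encodes p100, the RelB summit lay 1170 bp above the p52 summit in hg18 coordinates, within a region of 495 RelB and 1152 p52 reads. At NFKBIA the offset was -924 bp and at BCL3, which encodes an atypical IκB protein that binds p50 and p52 homodimers, -1160 bp. At LTA, the gene of lymphotoxin α, it was 2765 bp, at ICAM1, an adhesion molecule, -2032 bp and at CFLAR, the gene of the caspase-8 inhibitor c-FLIP, 956 bp. These regions were between 2963 and 5275 bp wide. Of the other strongest regions of listed genes, BIRC2 (-789 bp), BCL2 (-724 bp) and IER3 (-272 bp) also had far summits. At RELB, TNFAIP3 and BIRC3 the summits were 39, 2 and 11 bp apart, in narrower regions. Wide regions had near summits too, as at GADD45B (5504 bp wide, offset 51 bp), IRF5 (4629 bp, -18 bp) and REL (2993 bp, -6 bp). Among the 800 widest regions called for both, 21.4% had far summits, beside 7.88% of all 3200.

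At the RelB end of the ratio were regions without a named gene. All of the 12 regions with the highest ratio, among the 13251 with at least 40 reads of both subunits together, were called for RelB alone, and none of their closest genes could be named. On chromosome 9 (hg18, 66540426 to 66540802) 49 RelB reads stood against 1 p52 read, a ratio of 6.59 (counting interval 5.01 to 12.9). On chromosome 4 (48837142 to 48837508) there were 50 and 2 reads, a ratio of 6.03 (4.66 to 9.67). On chromosome 2 (91678967 to 91679338) they were 63 and 5, a ratio of 5.36. Several of the positions lie beside centromeres, where satellite repeats are common. No repeat annotation was used here, and the part of such repeats in these counts was not tested. Among the 100 highest regions 93 were called for RelB alone, 18 touched a gene and 5 overlapped a TSS, whereas of all 13251 regions 7776 touched a gene and 2255 overlapped a TSS. The 6 largest positive residuals from the line, between 3.94 and 5.29, were in 6 of the same kind of regions, the 5 with the highest ratios and one on chromosome 17 with 158 RelB and 33 p52 reads.

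The regions with the most RelB reads per kb were high for every subunit. On chromosome 6 (58884033 to 58887415) there were 5543 RelB, 4821 p52, 3246 p50 and 4410 RelA reads, and on chromosome 1 (121185486 to 121187111) 3169, 2423, 1502 and 2007. Their ratios were 2.14 and 2.33. Such regions had a high local background. In 73 regions the pileup over the fold enrichment exceeded 5 times the subunit's median. Of these, 72 had RelB at least 2-fold over p52, and their median ratio was 1.90. Without them the 2-fold counts were 1850 and 2636. The 20 regions with the most RelB reads held 5.62% of all RelB reads and 1.54% of the p52 reads. Among the 6 regions with the most p52 reads per kb were 3 of the same regions and, in addition, one 10101 bp upstream of ACTB, the gene of β-actin, with 1794 p52 and 379 RelB reads and a ratio of -0.30.

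At the p52 end RelB reads were nearly absent. The 12 regions with the lowest ratio had 0 to 2 RelB reads against 55 to 169 p52 reads, and all were called for p52, 9 of them with p50. A region within a gene on chromosome 22 (24606353 to 24606875) had 0 RelB and 75 p52 reads, so that with a floor of 3 reads in the region the RelB share was at least 6.50-fold lower than the p52 share. SLCO3A1, an organic anion transporter, was the only named gene of this group, with 0 and 62 reads within the gene, at least 5.37-fold lower. A region on chromosome 11 had 1 RelB and 119 p52 reads, a ratio of -3.96 (-10.3 to -2.45). RelA reads were also few in these 12 regions, from 5 to 15, while p50 reads ran from 16 to 127. Of the 100 lowest regions 97 were called for p52, 58 touched a gene and 0 overlapped a TSS. The 6 largest negative residuals, from -4.03 to -4.23, were in 6 of these regions. At BAG3, a co-chaperone of Hsp70, 0 RelB reads stood against 51 p52 reads, at least 4.42-fold lower. At the potassium channel gene KCNMA1, 0 RelB reads stood against 48 p52 reads, at least 4.16-fold lower. In this KCNMA1 region p50 alone was called, with 49 p50 reads, and p52 was not. These 2 genes were chosen after their values were seen, as the named genes next in order.

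Among regions called for both subunits, the named genes at the ends were different ones, and they too were chosen after their values were seen. The ends given here are those of regions with a named gene. Over all 3200 regions called for both the ratio ran from -2.27 to 2.94. At the RelB end were a region in ACOT7, an acyl-CoA thioesterase, with 66 RelB and 55 p52 reads (2.20, 1.67 to 2.75), a region 44884 bp upstream of IRF2, an interferon regulatory factor, with 101 and 94 (2.05, 1.63 to 2.47), and the IL4R promoter. CCL22, the chemokine of Reed-Sternberg cells that attracts T cells bearing CCR4, had 38 and 45 reads in a region 5490 bp upstream (1.71, 1.04 to 2.36). This region (hg18 chromosome 16, 55943707 to 55944729) holds a quantitative PCR amplicon of the study, at 55944336 to 55944411, whose primers are shown since they mark the RelB end among the sites the study had designed primers for.
CCL22 forward primer: gagtgccccctgtaagaaaac
CCL22 reverse primer: ggactgaaagtgagtgacagagaa
At the p52 end was a region 41584 bp upstream of CXCR5, the receptor that guides B cells to follicles, with 61 RelB and 783 p52 reads (-1.72, -2.14 to -1.36). ZFP36L2, an RNA-binding protein of the tristetraprolin family, had 54 and 568 (-1.43, -1.88 to -1.05). The TRAF1 promoter and PAX5, the factor that fixes B cell identity, followed, the latter with 101 and 899 reads (-1.20, -1.52 to -0.91). All these p52 end regions were called for p50 as well.

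For the 55 genes of the lists that could be named (of 118), the region with the most reads of both subunits was compared. RelB was at least 2-fold over p52 in 3 of them, beside 12.9% of all regions, and p52 at least 2-fold over RelB in 9, beside 17.7%. The counting interval lay above 0 in 15, below 0 in 20 and spanned 0 in 20. The region was called for both subunits in 45 and for p52 without RelB in 10.

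Genes of the NF-κB subunits had their strongest region over the TSS in all 5 cases, with RelB, p52, p50 and RelA called in each. RELB itself had 207 RelB and 319 p52 reads, a ratio of 1.32 (1.06 to 1.58), with signal ratios 2.20 and 1.66 above the median of the regions called for both. RELA had 65 and 150 reads (0.75, 0.29 to 1.17), with signal ratios 2.40 above and, for the second value, -0.12 from the median. NFKB2 had 0.73 (0.57 to 0.88) and NFKB1, which encodes p105 and p50, 0.63 (0.26 to 0.97), from 495 and 1152 and from 95 and 238 reads. REL was the exception, with an interval from -0.30 to 0.13. Over all 16 regions of these genes the median was -0.03 (-0.61 to 0.73, and 0.07 after adding 5 reads instead of 1), beside -0.14 over all regions. Of the 16, 1 (6.25%) was at least 2-fold to RelB and 2 (12.5%) to p52, beside 12.9% and 17.7% of all regions. At NFKB1 the other regions lay lower than that over the TSS, down to -1.23 with 12 RelB and 116 p52 reads, whereas RELA and REL each had a region away from the TSS with a slightly higher ratio (0.76 and 0.03).

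Among the IκB and feedback genes, TNFAIP3 had 18 regions with a median of -0.51. The region over its TSS had the highest ratio of the 18, at 1.19, and the lowest, at -2.61, lay 128795 bp upstream with 8 RelB and 211 p52 reads. TNIP1, whose product works with A20, had 1.26 over its TSS (185 and 297 reads) and -0.38 in its strongest region 3552 bp upstream (93 and 470 reads). NFKBIA had its highest ratio not over its TSS (0.55) but in another region upstream of it, with 37 and 93 reads (0.64). NFKBID, an atypical IκB with a single region, had 0.93 (0.62 to 1.22). Over the 34 regions of 5 named genes the median was -0.27 (-0.52 to 0.11). Of them 2 (5.88%) were at least 2-fold to RelB and 6 (17.6%) to p52, beside 12.9% and 17.7% of all regions. For BCL3 the read ratio of 0.55 and the signal ratios of -0.59 and -0.93 differed in sign.

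Of the genes of the non-canonical pathway 5 of 14 could be named, with 11 regions and a median of -0.27 (-1.53 to 0.48, and 0.11 after adding 5 reads). Past 2-fold were 0 regions to RelB and 2 (18.2%) to p52, beside 12.9% and 17.7% of all regions. CHUK, the gene of IKKα, had a single region with 6 RelB and 119 p52 reads (-2.16, -3.84 to -1.20), in which RelB was not called. It lay 8522 bp upstream of the CHUK TSS and within another, unnamed gene. CD40 had 99 and 482 reads over its TSS (-0.33, -0.67 to -0.03). BIRC2, encoding cIAP1, had 93 and 312 (0.21, -0.15 to 0.54), and LTA 404 and 1455 (0.10, -0.07 to 0.25). None of the 7 lymphoid organ genes of the lists could be named.

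For the B cell transcription factors the median over 69 regions of 9 genes was -0.60 (-0.78 to -0.22), with 1 region at least 2-fold to RelB and 19 (27.5%) to p52. Only 5 of the 69 regions overlapped a TSS. All regions had 12.9% past 2-fold to RelB and 17.7% to p52. The distal regions had 21.6% past 2-fold to p52 and a median of -0.34, which lies within the interval of the list. FOXP1, a forkhead factor of B cell development, had 18 regions with a median of -0.87, and its strongest had 30 RelB and 488 p52 reads (-2.04, -2.66 to -1.55). BACH2, a repressor of plasma cell differentiation, had 5 and 95 reads (-2.06, -3.96 to -1.03). ETS1, with 21 regions the gene with the most among those named, had 72 and 684 reads in its strongest (-1.29, -1.68 to -0.95) and ranged from -2.53 to 0.98. PRDM1, which drives plasma cell differentiation, had a median of -0.82 over 8 regions. RelB was not called in the strongest regions of FOXP1, BACH2 and ETS1. TCF3, encoding E2A, and POU2F1, encoding Oct1, differed, with -0.10 (-0.34 to 0.13) and 0.33 (-0.09 to 0.71). The strongest TCF3 region lay 16768 bp upstream. Over its TSS TCF3 had 163 and 309 reads (1.02, 0.74 to 1.30), the 1 region of the list at least 2-fold to RelB.

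AP-1 and ATF genes had a median of -0.64 (-1.06 to -0.21) over 19 regions of 4 genes, with 0 regions past 2-fold to RelB and 6 (31.6%) to p52, beside 12.9% and 17.7% of all regions and 21.6% of distal regions for p52. Of the 19 regions 1 overlapped a TSS. Only these 4 of the 10 listed genes could be named. JUNB, a listed gene without a name in the regions, went the other way where primers of the study located it, at 0.76 (0.59 to 0.94). FOS had 10 RelB and 101 p52 reads (-1.27, -2.50 to -0.45). BATF, an AP-1 factor of lymphocytes, had 58 and 472 reads 28207 bp upstream (-1.06, -1.50 to -0.69). Over its TSS BATF had 79 and 408 reads (-0.41, -0.79 to -0.07). JUN had 59 and 358 reads, 228688 bp upstream (-0.64, -1.08 to -0.26). STAT, IRF and JAK genes had a median of 0.12 (-0.36 to 0.74) over 11 regions of 4 genes. Past 2-fold were 0 to RelB and 0 to p52, beside the same 12.9% and 17.7% of all regions. IRF1, an interferon regulatory factor, had 176 and 626 reads over its TSS (0.12, -0.14 to 0.36), and IRF5 340 and 1414 (-0.11, -0.29 to 0.06).

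The cytokine and chemokine genes of Hodgkin cells had a median of -0.34 (-0.69 to -0.02) over 36 regions of 8 genes. Past 2-fold to RelB were 2 (5.56%), beside 12.9% of all regions. Past 2-fold to p52 were 7 (19.4%), near the 17.7% of all regions. CCL22 and IL13 stood at the ends. The strongest IL13 region, 4727 bp downstream of its TSS, had 27 RelB and 504 p52 reads (-2.23, -2.89 to -1.72), and another of its regions had 35 and 53 (1.36). CCL17, like CCL22 a ligand of CCR4, had 125 and 548 reads (-0.18, -0.48 to 0.09), and CCL5 63 and 196 (0.32, -0.13 to 0.72). Surface receptors and ligands had a median of -0.19 (0.02 after adding 5 reads) over 36 regions. Past 2-fold were 0 to RelB and 5 (13.9%) to p52, beside 12.9% and 17.7% of all regions. CD80, a costimulatory ligand of T cells, had 76 and 595 reads (-1.01, -1.39 to -0.68) and its partner CD86 64 and 260 (-0.06, -0.50 to 0.32).

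Apoptosis regulators had a median of -0.12 (0.05 after adding 5 reads) over 43 regions of 10 genes. Past 2-fold to RelB were 4 (9.30%), beside 12.9% of all regions. Past 2-fold to p52 were 8 (18.6%), again near the 17.7% of all regions. CFLAR had 142 RelB and 329 p52 reads over its TSS (0.74, 0.44 to 1.02). BCL2L1, the gene of Bcl-xL, had 201 and 1062 (-0.45, -0.68 to -0.24), and BCL2 176 and 960 (-0.50, -0.74 to -0.27). BCL2A1, encoding the Bcl-2 relative A1, had equal shares, with 43 and 168 reads (0.00, -0.54 to 0.47). Of the housekeeping reference genes ACTB alone could be named, with 7 regions and a median of 0.26.

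**Figure D5:**
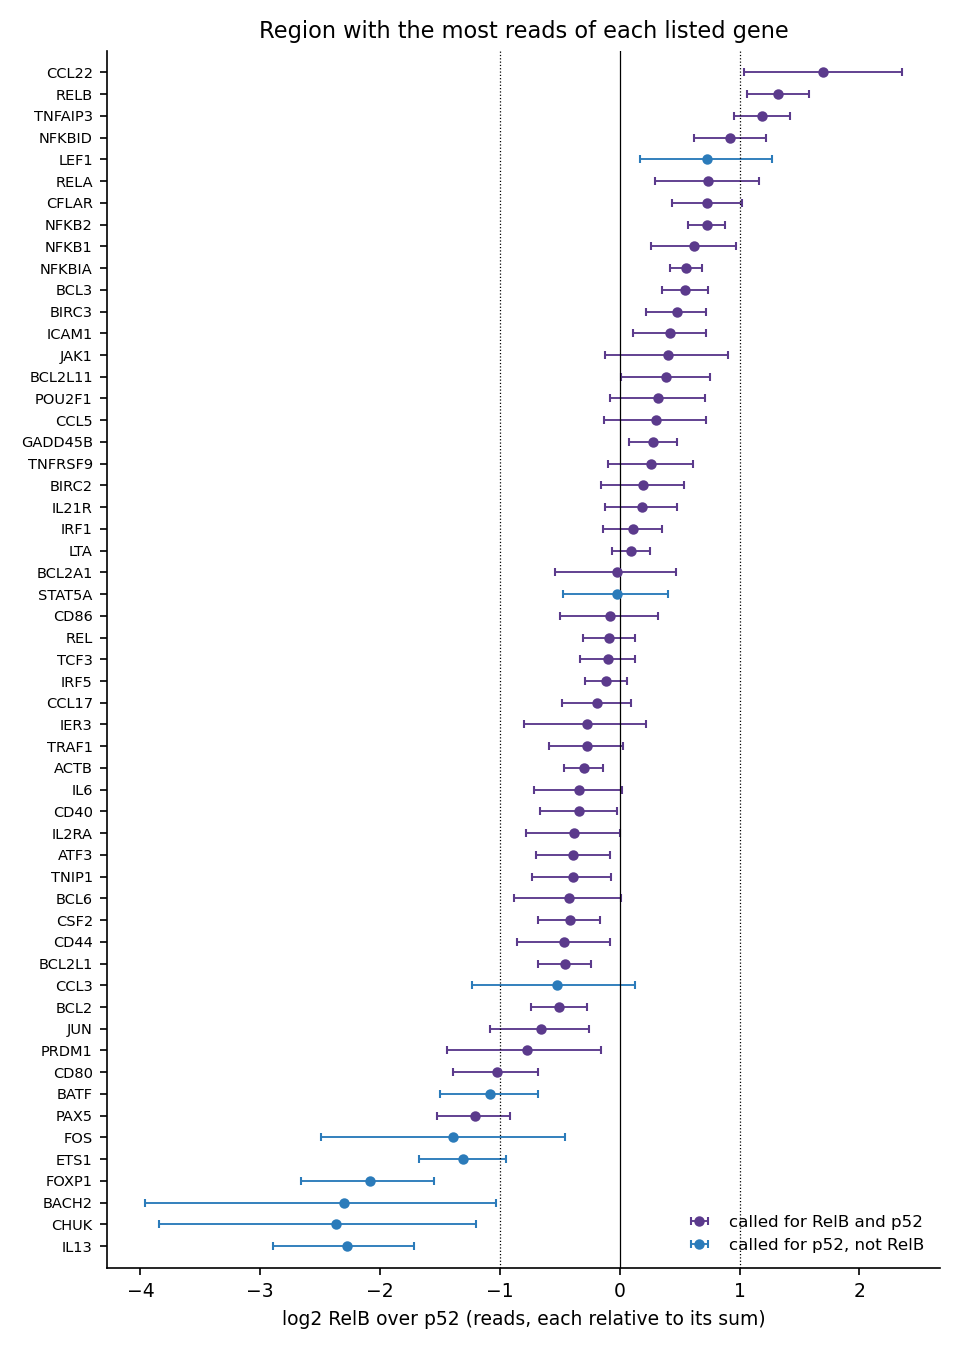
Log2 ratio of RelB to p52 reads, with no read added, in the region with the most reads of both subunits for each of the 55 named genes of the lists, with exact 95% counting intervals. Purple points are regions called for both subunits and blue points regions called for p52 without RelB, and dotted lines mark 2-fold. CCL22, RELB and TNFAIP3 lie at the RelB end and IL13, CHUK and BACH2 at the p52 end.

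Ratios varied widely within genes. Of 1103 genes with 4 or more regions, 206 had regions past 2-fold in both directions, and the median span from the lowest to the highest region of a gene was 2.02 on the log2 scale. Adjacent regions less than 20 kb apart (5096 pairs) had a rank correlation of the ratio of 0.21. Of the 253 such genes with a name, HIVEP1, a zinc finger protein that binds κB-like sites, had a median of 1.29 over 5 regions, from 0.61 to 2.89, and BCAR3 1.03 over 8. At the other end were PIK3R1, the regulatory subunit of phosphoinositide 3-kinase, with -1.35 over 8 regions, of which 6 were past 2-fold to p52, and GNA12, a G protein subunit, with -1.11 over 9, of which 5 were. These 4 genes were chosen after their values were seen.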

How the data were processed

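ChIP-seq of RelB, p52, p50 and RelA in L1236 cells (2 replicates each, 6 inputs) was used as the table of 14865 union regions deposited by the authors. The labels name Bowtie, SAMtools, CASAVA and hg18. The authors kept uniquely mapping reads, removed duplicates, reduced larger libraries by random sampling, called peaks with MACS and tested reproducibility between replicates (IDR) before merging them. The deposited read counts are raw and of merged replicates, and whether they precede the reduction is not stated, nor are tool versions. The deposited fold enrichment is a ratio of ChIP to input at the summit, the deposited pileup a coverage signal there, the deposited IDR a fraction (at most 0.0100 in called regions), the deposited FDR a q-value, and the deposited signal values a score of 1 per replicate on a scale that is not named. Peak calls, summits and distances to genes and TSS are the authors' own.

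Counts were scaled by their sums over all regions (470788 and 1810792), 1 read was added, and medians, shares, rank correlations, a least-squares line and exact binomial intervals were computed with scipy 1.17.1, numpy 2.4.6 and pandas 2.3.3 under Python 3.11.15 (plots with matplotlib 3.10.9), after they were tested on simulated data. Intervals and floors (3 reads) cover counting error only. With 1 merged value per subunit no comparison was tested, and the number of reads limits the precision: 106 regions had 0 RelB reads and the median region 19.

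The genes named were those of the 12 regions at either end of the ratio and the 6 at either end of the residuals (at least 40 reads), of the 6 regions with the most reads per kb of each subunit, and of the lists, each by its region with the most reads. The comparison, the rule and the lists were chosen with earlier results of these data known. None of the 8450 gene identifiers was in the RefSeq table, and 1132 were named from pairs of identifier and symbol in the study's supplementary tables, so most genes remain unnamed here. Many of the named genes at the ends begin with the letter A or B. The named genes are thus an uneven selection of all genes, and their ends are the ends of that selection only. Promoters were matched by symbol and chromosome. Motif work on the regions, which needs hg18, was not done here. Some items, among them a member of the lists, are not reported here, and the list values are without that member.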

Additional observations from a re-analysis of the deposited data

How the results depend on the processing

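No test was run, so the alternatives concern values. Of 56 recomputed values 36 stayed within the limits of the first value, 20 moved. The sign changed in 4, all list medians after adding 5 reads and within their intervals: NF-κB subunits 0.07, non-canonical pathway 0.11, surface receptors 0.02 and apoptosis regulators 0.05. Adding 5 reads gave 1095 regions with p52 at least 2-fold over RelB. Scaling by mapped reads, chosen after seeing the data, gave 1012 and 4874 regions, and by reduced libraries 271 and 10685. The rank correlation of RelB with p52 reads was 0.47 per kb, 0.63 with at least 40 reads, 0.54 in pileup and 0.51 in fold enrichment, and with a single signal value each 0.21 to 0.53. Adding width to the line lowered the residual SD to 0.92. The TSS difference was 0.61 with near set at 5 kb, 0.63 after adding 5 reads, 0.031 in fold enrichment, 0.20 to 0.62 with a single signal value each and, chosen after seeing the data, 0.44 in reads and 0.30 in pileup of regions called for both. The median summit distance was 15.5 bp in regions of at most 1000 bp. The causes of these shifts were not tested, except that the shift of a scaling is its own construction. An FDR below 1e-05 for both subunits and removal of high background changed no value beyond its limits. No paired analysis was possible because the counts are of merged replicates and the signal values carry no replicate number. The limits of depth are strongest for RelB, where the median region had 19 reads.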

Other observations

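Among the amplicons of the study's primer list that lay in a single region, the highest RelB to p52 ratio was that of CCL22, at 1.71. JUNB, an AP-1 gene amplified in Hodgkin lymphoma, had 393 RelB and 891 p52 reads and a ratio of 0.76 (0.59 to 0.94). CD70, a ligand of the TNF family, had 70 and 440 reads and a ratio of -0.69 (-1.09 to -0.34). At ACTB the amplicon fell into a region where p50 alone was called, with 71 RelB and 116 p52 reads and a ratio of 1.24 (0.79 to 1.67). The study used this ACTB site as a reference without NF-κB recruitment. A ratio of this height thus also occurred where neither RelB nor p52 was called.

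The ratio of RelB to p52 reads also went with the ratio of RelA to p50 reads, which shares no library with it. The rank correlation was 0.22 over all regions and 0.40 over the 3200 regions called for both. The 4 counts of a region share its width and local coverage, so the value is a description with no test.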
